A study of Mus musculus with 9 samples.

Results

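In the adipocytes of cold-exposed mice, 4852 Ets1 peaks lay at promoters, lay under an Ets1 peak of cultured beige adipocytes as well, and had no Ets1 peak over them at room temperature. A promoter here was the stretch of 1 kb on either side of a transcription start site (TSS) of a protein-coding gene, and 1 bp of overlap counted as shared. The 4852 peaks were drawn from 14858 Ets1 peaks of the cold library, of which 6935 were at promoters, so 70.0% of the cold promoter peaks met the rule. They touched the promoters of 5394 of 21938 protein-coding genes, or 24.6%. Both shares describe the choice and are no result about it, because presence in cold and beige cells and absence at room temperature were the measured values that chose the peaks.

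The study asked how the transcription factor Ets1 acts in subcutaneous fat that browns in the cold. Ets1 was profiled in the floating, mature adipocyte fraction of inguinal white fat (iWAT) from wild-type male C57 mice aged 8 to 10 weeks, kept in the cold for 7 days (CS) or at room temperature (RT). It was also profiled in beige adipocytes grown for 6 days from the stromal vascular fraction of iWAT of male C57BL/6J mice aged 3 to 4 weeks, with insulin, dexamethasone, T3, rosiglitazone and IBMX in the differentiation media. Openness and H3K27ac came from mature iWAT adipocytes of mice aged 8 to 10 weeks and of 4 genotypes, none of which had an Ets1 list. All these mice were on the C57BL/6J background. EAKO mice carried floxed Ets1 (Ets1 f/f) with Adipoq-cre, which removes the gene in adipocytes, and their controls, Flox, carried Ets1 f/f without Cre. EA+/+ mice carried an Ets1 knock-in at Hipp11 behind a loxP-flanked stop (Ets1 ki/ki) with Adipoq-cre, and their controls, EC+/+, carried Ets1 ki/ki alone. ATAC was available for EAKO and Flox, and H3K27ac for all 4. No cold exposure is given for these mice, so their openness and H3K27ac cannot be read as the state in the cold. Each group was 1 library, so no difference between groups could be tested and nothing is known of how animals vary. The lists held 14858 peaks in CS, 30553 in beige and 4056 in RT for Ets1, 82839 in EAKO and 88977 in Flox for ATAC, and 38484 in EA+/+, 33713 in EC+/+, 74682 in EAKO and 86834 in Flox for H3K27ac. A peak that is missing from a shorter list may be below its threshold rather than absent. In cells taken in bulk, fewer cells of a type and less signal per cell cannot be told apart.

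Ets1 belongs to the ETS family, whose members share a DNA-binding domain that reads a core of GGAA, and several of them sit at the promoters of genes that most cells use. H3K27ac, an acetyl group on histone H3, marks promoters and enhancers in use, and ATAC reads open DNA with a free transposase. Ets1 and H3K27ac were mapped by CUT&Tag, in which an antibody tethers a transposase to its target. Open DNA can be cut in that assay without the target, so openness is no independent check of binding. In cold-exposed fat, beige adipocytes raise mitochondrial heat production, and autophagy, the delivery of cell contents to lysosomes, is known to clear their mitochondria when the stimulus ends.

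The ETS sequence searched was CCGGAAG, on either strand. It stood within 50 bp of the CS summit, on either side, at 331 of the 4852 peaks. The runs of 30 bases below come from peaks of the gene lists and classes described here, chosen to show the sequence at mitochondrial, ribosomal, trafficking and signalling genes. They are read on the strand that holds the sequence, with CCGGAAG in capitals, from mm10.
Tomm70a, chr16:57121623-57121652, plus strand: gccttctgaccCCGGAAGtggttctcccct
Myl6b, chr10:128498778-128498807, minus strand: gtcaccaggggCCGGAAGtcaccaccaact
Uba6, chr5:86172880-86172909, minus strand: ccccgccccaaCCGGAAGtcaggtgtccca
Mapkap1, chr2:34406831-34406860, minus strand: taccccgcgtaCCGGAAGtccccgatctgc
Nup107, chr10:117792698-117792727, plus strand: cacccttcgacCCGGAAGcgcggcctggct
Sec24c, chr14:20674277-20674306, minus strand: gcgtgccgtccCCGGAAGttccgccccatg
Cox4i1 and Emc8, chr8:120668278-120668307, minus strand: ggtgctcgcgaCCGGAAGaacggggcccgc
Rpl15 and Nkiras1, chr14:18271125-18271154, minus strand: tgggagagcatCCGGAAGcggcgggctgtc
Atp6v0e, chr17:26676407-26676436, minus strand: tctcgtcccacCCGGAAGtgtcaacagagg
Cox8a, chr19:7217604-7217633, plus strand: ggacgcccgagCCGGAAGtatttcggaaat
In Cox8a, a subunit of cytochrome c oxidase, the middle of the sequence lay 1 bp from the CS summit, and 2 copies fell in the window. The distance was 42 bp for Mapkap1, a subunit of the mTORC2 kinase complex.

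To show the setting of the sequence, the whole stretch of 50 bp on each side of the CS summit is given on the plus strand for 2 peaks. No annotated exon falls in either printed stretch. Capitals mark CCGGAAG or its reverse complement CTTCCGG. Actb encodes beta-actin, and Dhcr7 and Nadsyn1 encode the last enzyme of cholesterol synthesis and an NAD synthetase.
Actb, chr5:142906011-142906111, plus strand: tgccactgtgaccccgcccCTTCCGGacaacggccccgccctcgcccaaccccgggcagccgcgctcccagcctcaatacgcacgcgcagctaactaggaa
Dhcr7 and Nadsyn1, chr7:143822893-143822993, plus strand: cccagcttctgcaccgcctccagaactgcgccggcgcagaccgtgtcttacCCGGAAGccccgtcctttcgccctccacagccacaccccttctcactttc
Both windows are rich in G and C and hold a single copy.

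The repeated peaks sat close to the start of transcription. The CS summit lay a median of 84 bp from the nearest protein-coding TSS, within 100 bp in 2710 of 4852 peaks (55.9%) and within 250 bp in 4143 (85.4%). In the 1402 cold promoter peaks with neither a beige nor an RT peak, the median distance was 223 bp. In the 632 cold promoter peaks present in beige cells and at RT, it was 116 bp. The summit was upstream of the TSS in 2678 of the 4852 peaks and on or downstream of it in 2174. The beige summit stood within 100 bp of the CS summit in 2749 peaks (56.7%), at a median of 83 bp. Peaks that touched promoters of genes on both strands made up 730 of 4852 (15.0%, Wilson 95% interval 14.1 to 16.1%). Among cold promoter peaks found in neither other list they were 69 of 1402 (4.92%, 3.91 to 6.18%). Among those found in both they were 104 of 632 (16.5%, 13.8 to 19.5%). Beige promoter peaks found neither in CS nor at RT gave 437 of 5580 (7.83%, 7.16 to 8.57%). Peaks that touch promoters on both strands cannot be assigned to a single gene. Of the 5394 genes, 5107 had 1 repeated peak, 276 had 2, 10 had 3 and 1 had 4.

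**Figure D1:**
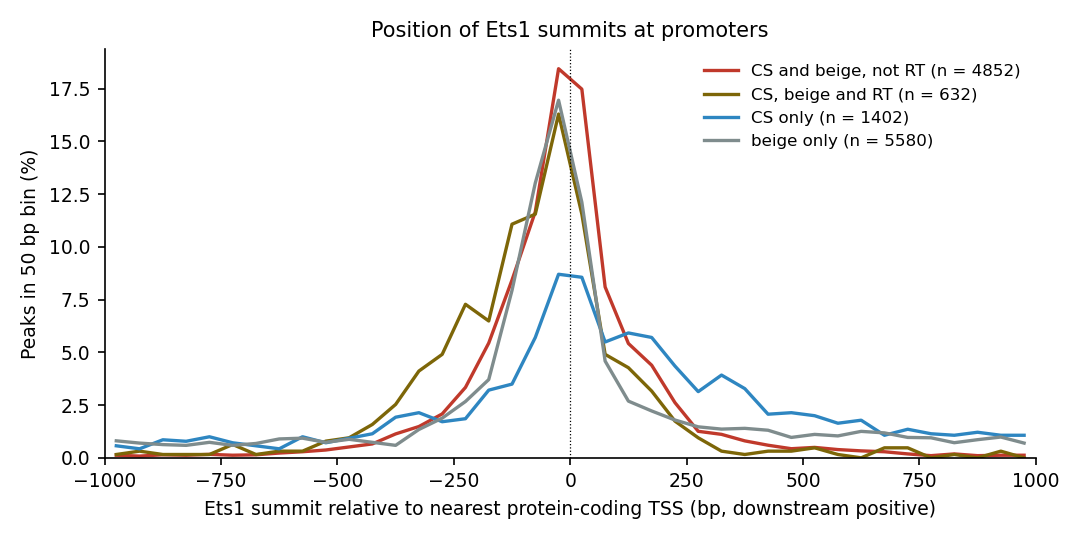
Share of Ets1 summits (y axis, percent of each class in bins of 50 bp) by their distance from the nearest protein-coding TSS (x axis, bp). The 4852 peaks of CS and beige but not RT gather within 250 bp of the TSS, while the 1402 peaks of CS only reach further downstream.

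MACS2 gave each peak a −log10 q, which ranks it within its own list. In CS it lay between 1.3 and 32.0 among the repeated peaks, with a median of 5.33 and a median fold enrichment over local background of 5.30. In beige cells the median was 18.5 and the highest value 357. Values of 2 lists cannot be compared directly, but ranks can be placed side by side. The repeated peaks had a median percentile of 70.7 in the CS list and 81.4 in the beige list, and 3632 of 4852 (74.9%) stood above the CS median. Across the 4852 peaks, which share their libraries, the CS and beige values had a Spearman rho of 0.40 (Pearson r of the log10 values 0.40). The median CS value was 2.87 among cold promoter peaks found in neither other list and 12.1 among those found in both.

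The strongest repeated peak in CS lay at Camsap1, which encodes a protein that binds the minus ends of microtubules (ENSMUSG00000026933.17, chr2:25983239-25983758). Its −log10 q was 32.0 in CS and 224 in beige cells, with ATAC values of 95.4 in EAKO and 142 in Flox. H3K27ac values there were 3.13 in EA+/+, 10.3 in EC+/+, 108 in EAKO and 97.0 in Flox. All 6 chromatin lists thus held a peak over it. Next came the promoter that Cbx3, a heterochromatin protein, shares with Hnrnpa2b1, an RNA-binding protein of splicing, with 31.5 in CS and 213 in beige cells. Birc6, a very large ubiquitin ligase that also restrains autophagy, had 25.3 in CS and 102 in beige cells. Cdk13, a kinase of RNA polymerase II, had 26.9 in CS and 103 in beige cells, and Sec11a, a subunit of the signal peptidase, had 24.3 in CS and 28.9 in beige cells. Mapk8, the stress kinase JNK1, had 24.4 in CS and 39.2 in beige cells. Its peak met H3K27ac in EA+/+ at 3.83, in EAKO at 9.41 and in Flox at 19.9, and none in EC+/+. The other 6 of the first 12 were at 0610009B22Rik, Iffo2, Ogfod2, Zbtb37, Suco, and the shared promoter of Dnaaf5 and Prkar1b, with CS values of 24.6 to 28.7.

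In beige cells the strongest repeated peak was at Nadk, the kinase that makes NADP, with 357 in beige cells and 19.0 in CS. Eef1a1, a translation elongation factor, had 232 in beige cells and 17.2 in CS. Skil, a repressor of TGF-beta signalling, had 242 in beige cells and 11 in CS. Over the Ets1 peak at Skil lay an ATAC peak of 78.0 in Flox and none of EAKO, although H3K27ac was present in all 4 genotypes there. Bhlhe40, a repressor of the circadian clock, had 260 in beige cells but 2.60 in CS, and Nfatc4 had 247 in beige cells but 3.79 in CS. The 12 strongest in the beige list thus ran through much of the CS range, and no peak was among the 12 strongest of both lists.

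Nearly all the repeated peaks lay in chromatin that was open in adipocytes with or without Ets1, from mice with no stated cold exposure. An ATAC peak covered 4606 of 4852 in EAKO (94.9%, Wilson 95% interval 94.3 to 95.5%) and 4787 in Flox (98.7%, 98.3 to 98.9%). Both genotypes had one at 4604 peaks, and neither at 63. H3K27ac covered 3629 in EA+/+ (74.8%, 73.6 to 76.0%), 3818 in EC+/+ (78.7%, 77.5 to 79.8%), 4463 in EAKO (92.0%, 91.2 to 92.7%) and 4736 in Flox (97.6%, 97.1 to 98.0%). It was present in all 4 genotypes at 3156 peaks (65.0%) and in none at 83 (1.71%). All 6 lists met at 3117 peaks (64.2%), and 31 met none of them. The lower shares in EA+/+ and EC+/+ stand beside shorter lists, 38484 and 33713 peaks, against 74682 in EAKO and 86834 in Flox. With the best 33713 peaks of each list, H3K27ac covered 73.4% in EA+/+, 78.7% in EC+/+, 88.8% in EAKO and 95.3% in Flox.

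**Figure D2:**
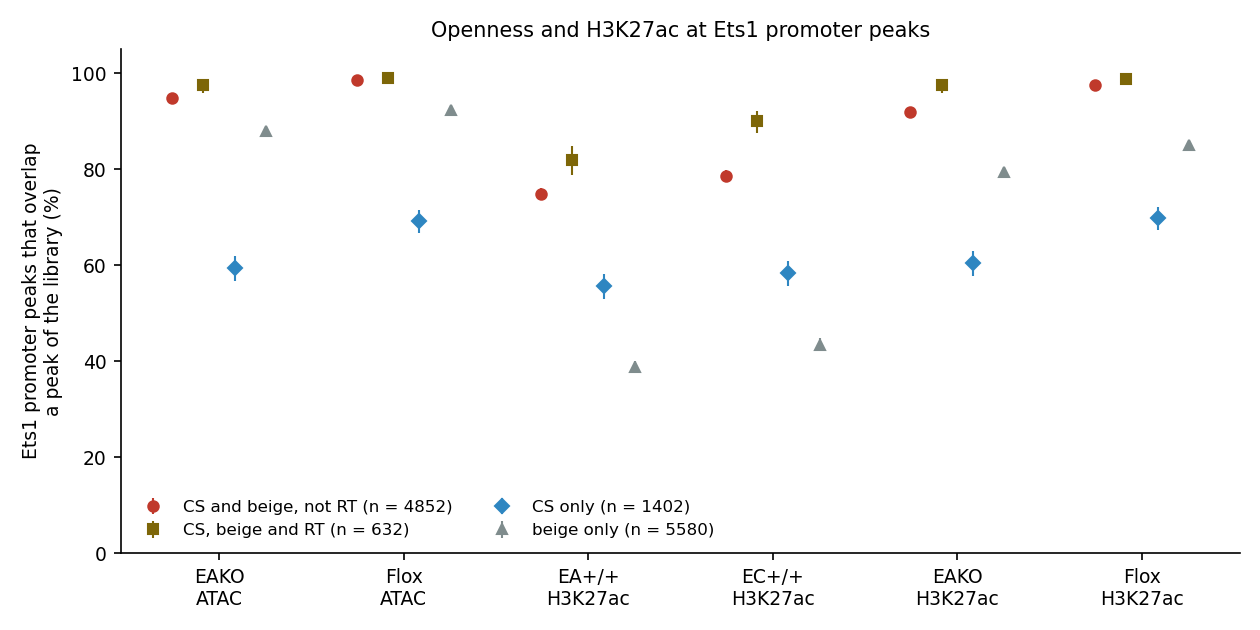
Percent of Ets1 promoter peaks (y axis) that overlap a peak of each of the 6 ATAC and H3K27ac libraries (x axis), for 4 classes of Ets1 promoter peak; bars are Wilson 95% intervals for counting error. The repeated peaks stand at 94.9 and 98.7% for ATAC, below the peaks that RT also holds and above those of CS only in every library.

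The other Ets1 promoter classes differed from the repeated ones in both directions. Among the 1402 peaks of CS only, ATAC was present at 59.3% in EAKO and 69.1% in Flox, and H3K27ac at 55.6% in EA+/+, 58.3% in EC+/+, 60.4% in EAKO and 69.8% in Flox. Among the 632 that beige cells and RT both held, the shares were 97.5% and 99.1% for ATAC, in that order of genotypes, and 82.0, 90.0, 97.5 and 98.9% for H3K27ac. The 5580 beige promoter peaks found neither in CS nor at RT had ATAC at 88.0% in EAKO and 92.4% in Flox, but H3K27ac at 38.7% in EA+/+ and 43.5% in EC+/+. Strength went with these shares. When all cold promoter peaks were split by CS −log10 q into 4 groups of near-equal size, the repeated peaks met EAKO H3K27ac at 85.8% in the weakest group and 96.2% in the strongest, and EA+/+ H3K27ac at 64.7% in the weakest and 83.7% in the strongest. In the weakest group, 903 repeated peaks met Flox ATAC at 96.8% (95.4 to 97.8%) and 801 peaks of CS only at 65.2% (61.8 to 68.4%).

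Where one genotype of a pair lacked a peak, the control more often held it. An ATAC peak of EAKO alone lay over 2 repeated peaks, at Arid1b and Tcf20, and one of Flox alone over 183. H3K27ac was in EAKO alone at 13 and in Flox alone at 286, and it was in EA+/+ alone at 394 and in EC+/+ alone at 583. To read these counts against the whole promoter landscape, the peaks of each list were taken as the unit. Of EAKO ATAC promoter peaks, 3.37% met no Flox peak, and of those over repeated Ets1 peaks, 4 of 4576 (0.0874%). Of Flox ATAC promoter peaks, 9.33% met no EAKO peak, and at repeated Ets1 peaks 54 of 4692 (1.15%). For H3K27ac, 11.1% of EAKO promoter peaks met none in Flox, against 11 of 4482 (0.245%) at the repeated peaks, whereas 19.0% of Flox promoter peaks met none in EAKO, against 200 of 4710 (4.25%). Of EA+/+ promoter peaks 30% met none in EC+/+, and 371 of 3676 (10.1%) at the repeated peaks, and of EC+/+ promoter peaks 32.4% met none in EA+/+, and 559 of 3878 (14.4%). Peaks limited to 1 genotype of a pair were thus a smaller share at the repeated Ets1 peaks than over all promoter peaks in all 6 directions. The chromatin peaks there were also strong ones, with median percentiles of 92.6 in EAKO ATAC, 94.3 in Flox ATAC, 85.8 in EA+/+, 85.6 in EC+/+, 92.7 in EAKO and 94.3 in Flox H3K27ac, and the part of that strength was not tested.

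Among the 183 peaks with ATAC in Flox alone, the strongest in CS was at a mitochondrial promoter. No peak here means none over the Ets1 peak itself, and does not mean a closed promoter. Of the 5394 genes with a repeated peak, 5381 had an EAKO ATAC peak somewhere in their promoter windows (99.8%), and 5392 a Flox one. The peak shared by Cox4i1, a subunit of cytochrome c oxidase, and Emc8 had 12.6 in CS and 52.7 in beige cells. Its ATAC value was 40.0 in Flox with no peak in EAKO, and its H3K27ac value was 46.9 in Flox with no peak in EAKO, 2.42 in EA+/+ and no peak in EC+/+. Msl1, a subunit of a histone acetyltransferase complex, had ATAC of 48.6 and H3K27ac of 10.0 in Flox and neither in EAKO. Cers2, a ceramide synthase for very long acyl chains, lacked an ATAC peak in EAKO beside 39.9 in Flox, yet had H3K27ac of 16.9 in EAKO and 13.7 in Flox. Nr3c1, the glucocorticoid receptor, had an ATAC value of 104 in Flox and no peak in EAKO, with H3K27ac in Flox alone at 4.88. The Flox ATAC peaks with no EAKO peak over the same Ets1 peak were a weaker set, with a median percentile of 66.9 in the Flox list, against 94.6 where both genotypes had one.

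H3K27ac differed in the same way. Of the 286 peaks with H3K27ac in Flox and not in EAKO, the strongest in CS were Myl6b, a myosin light chain, with 21.9 in CS and a Flox value of 10.2, and Rev1, a DNA polymerase of lesion bypass, with 15.8 in CS and a Flox value of 8.70. Glud1, glutamate dehydrogenase, shares its peak with Shld2 and had 15.2 in CS and 17 in Flox. The 13 with H3K27ac in EAKO and not in Flox included Tatdn2, with 11.6 in CS and an EAKO value of 12.8, and Scap, the escort of the sterol-regulated factors SREBP, with 8.05 in CS and an EAKO value of 8.06. Of the 394 with H3K27ac in EA+/+ and not in EC+/+, Mapk8 stood first, and Acaca, acetyl-CoA carboxylase of fatty acid synthesis, followed with 17.9 in CS and an EA+/+ value of 3.47. Of the 583 with H3K27ac in EC+/+ and not in EA+/+, Iffo2 stood first with 27.6 in CS and 6.18 in EC+/+, and Sec16a, an organiser of endoplasmic reticulum exit sites, had 20.1 in CS and 6.39 in EC+/+. H3K27ac was present in EA+/+ and Flox and absent in EC+/+ and EAKO at 69 peaks, among them Cox4i1, Atp1b3, a sodium pump subunit, and Cisd3, a mitochondrial iron-sulphur protein. The opposite pattern held at 2 peaks, at Hsp90ab1, a chaperone, and Cenpe, a kinetochore motor. Beside these counts stand the 286 peaks with H3K27ac in Flox alone and the 13 in EAKO alone over all repeated peaks, and the part of that imbalance was not tested. The share of either pattern over all promoter peaks was not counted, so neither count is a result about the repeated peaks. Absent again means over the Ets1 peak itself. Of the 5394 genes, 4729 had an H3K27ac promoter peak in EA+/+ (87.7%), 4871 in EC+/+ (90.3%), 5332 in EAKO (98.9%) and 5382 in Flox (99.8%). Over all 21938 protein-coding genes the shares were 50.4, 52.0, 60.5 and 63.9% in that order.

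Few repeated peaks lacked an ATAC peak or an H3K27ac peak in every genotype, and 31 lacked both. In the 63 with no ATAC peak, the strongest in CS was at AI467606, with 19.9 in CS and 3.28 in beige cells, and H3K27ac was in all 4 genotypes at 3.26 to 6.55. Zbtb46, a zinc finger factor, and Mbd6 met no peak in any of the 6 lists, with 6.72 and 6.56 in CS and 44.7 and 54.1 in beige cells. Of the 83 with no H3K27ac, 52 were open in Flox. Among the 83, Mef2d, a MADS-box factor, had 9.61 in CS, 78.4 in beige cells and an ATAC peak of 5.19 in Flox alone. Phf12 had ATAC of 125 in EAKO and 144 in Flox without H3K27ac in any genotype.

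Autophagy genes that the study names were mostly among the repeated peaks. This list and the mitochondrial one were picked by the study on these samples, so their counts are no independent evidence of binding. Of 10 autophagy genes, 9 had a repeated peak, and Ulk1, the kinase that starts autophagy, did not because RT also held a peak there, of 6.05 beside 17.1 in CS. Atg4d, a protease that processes the ATG8 proteins, had 12.0 in CS and 43.1 in beige cells. Atg5, part of the conjugation machinery of the autophagosome, had 10.8 in CS and 29.7 in beige cells, and Atg9a, the lipid scramblase of its membrane, had 9.92 in CS and 48.4 in beige cells. Atg4b, another such protease, had 6.79 in CS and 6.40 in beige cells at the stronger of its 2 repeated peaks. Its other peak had 2.47 in CS and met ATAC peaks of 3.88 in EAKO and 12.2 in Flox, but no H3K27ac peak. Atg3, a conjugating enzyme, had 5.66 in CS and 11.6 in beige cells, and Atg16l2 had 5.59 in CS and 5.71 in beige cells. Atg10 had 5.56 in CS and 3.86 in beige cells, Atg101, a partner of the ULK1 kinase, had 5.35 in CS and 23.1 in beige cells, and Atg2a, a lipid transfer protein, had 3.77 in CS and 61.4 in beige cells. At the strongest peak of each gene, all 9 met a peak in each of the 6 chromatin lists, as 3117 of the 4852 repeated peaks did.

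Of 6 mitochondrial genes named by the study, 5 had a repeated peak, and Uqcr10, a subunit of complex III, had 6.57 in CS at a peak that no beige or RT peak overlapped. All 6 genes, Uqcr10 included, had a beige peak somewhere in their promoter windows. Tfam, which packages mitochondrial DNA and starts its transcription, had 13.2 in CS and 34.7 in beige cells. Sdhb of complex II had 9.29 in CS and 34.8 in beige cells, and Ndufv2 of complex I had 8.56 in CS and 17.6 in beige cells. Atp5a1 of the ATP synthase had 6.96 in CS and 7.49 in beige cells, and Cox8a had 4.61 in CS and 50.8 in beige cells. All 5 were in the 6 chromatin lists. In H3K27ac of EA+/+, the lowest percentiles among the 14 genes were those of Atg9a (54.4), Atg101 (55.4) and Sdhb (55.9).

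**Figure D3:**
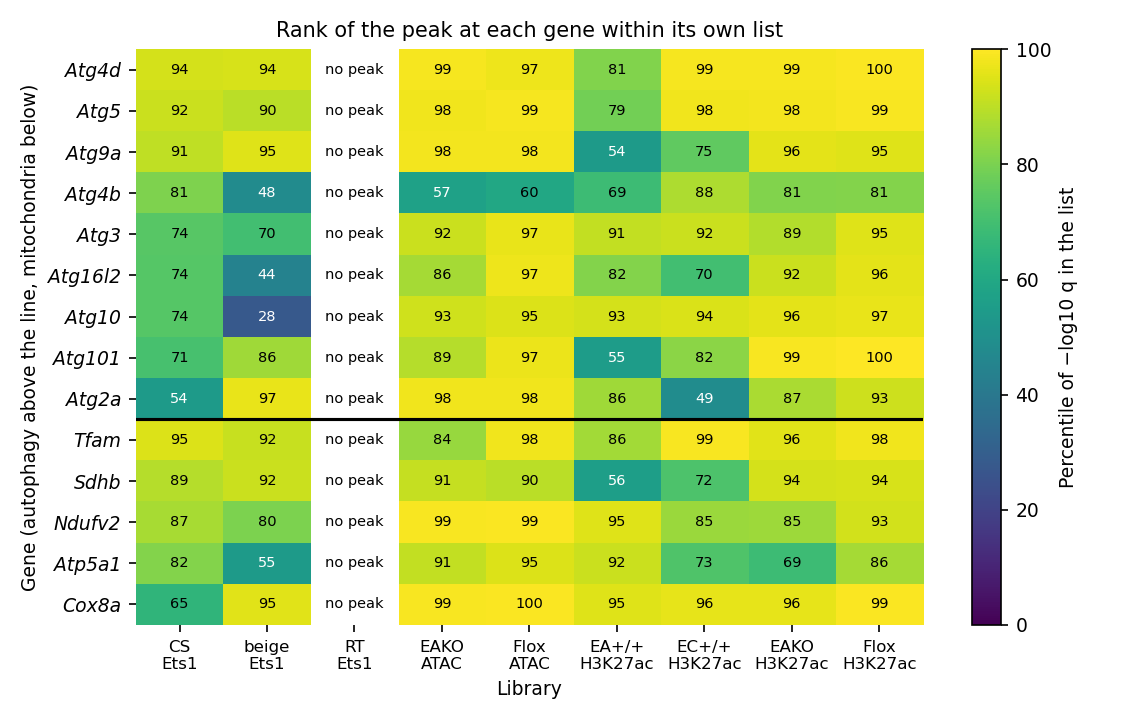
Percentile of the peak at each of 14 genes (rows) within the −log10 q values of its own list, for the 9 libraries (columns); a white cell has no peak. The 9 autophagy and 5 mitochondrial genes had a peak in every list except RT, where the rule allowed none.

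Beyond those names, the repeated peaks fell widely over the machinery that every cell uses. These counts follow from the rule and are set beside 24.6% of all protein-coding genes and beside 5392 of the 14858 genes with a Flox ATAC promoter peak (36.3%). Of 36 proteasome genes, 28 had a repeated peak (77.8%, Wilson 95% interval 61.9 to 88.3%), led by Psma4 of the core particle with 14.6 in CS and 40.0 in beige cells and Psmd12 of the cap with 9.10 in CS and 68.4 in beige cells. Of 28 nuclear pore genes, 21 did (75%), led by Nup107 with 16.0 in CS and 49.3 in beige cells. Cullin ligases, which tag proteins with ubiquitin, gave 23 of 32 (71.9%), with Cul3 at 15.0 in CS and 210 in beige cells. Vesicle coat genes of the secretory pathway gave 25 of 35 (71.4%), with Sec16a at 20.1 and Sec23a at 17.4 in CS. tRNA synthetases gave 25 of 36 (69.4%), with Eprs at 13.2 in CS, and spliceosome genes 39 of 60 (65%), with Hnrnpk at 15.5 in CS. Cytosolic ribosome genes gave 47 of 79 (59.5%), with Rpl27 at 15.0 in CS and 146 in beige cells, and DNA replication genes 25 of 42 (59.5%), with Pole4 at 19.6 in CS. Lower were translation factors, 22 of 48 (45.8%), and RNA polymerase II and Mediator genes, 32 of 69 (46.4%).

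In the pathways of degradation and growth control, core autophagy had 30 of 50 genes with a repeated peak (60%, 46.2 to 72.4%). Of these 30, 24 met H3K27ac in EA+/+, 28 in EC+/+, 29 in EAKO and 30 in Flox. Tmem41b, which helps autophagosomes form, had 10.9 in CS and 54.2 in beige cells. The list for mTORC1 and AMPK, the kinases that restrain and promote autophagy, gave 22 of 37 (59.5%). Lamtor2, a lysosomal anchor of mTORC1, stood at 18.8 and Flcn at 10.6 in CS. Mapkap1, at 20.7 in CS, was counted in that list but belongs to mTORC2. Lysosome and proton pump genes gave 14 of 34 (41.2%, 26.4 to 57.8%), led by Npc2, a cholesterol carrier of the lysosome, with 11.8 in CS. Genes of ubiquitin E1 and E2 enzymes gave 20 of 40 (50.0%), with Uba6 at 21.4 in CS.

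Of mitochondrial genes, complex I had 19 of 36 (52.8%), with Ndufs8 at 13.1 in CS and 44.5 in beige cells, and complexes II to V had 23 of 41 (56.1%), with Uqcrq of complex III at 18.9 in CS. The mitochondrial ribosome had 41 of 75 (54.7%), with Mrps18b at 15.5 in CS and 113 in beige cells. Protein import had 15 of 31 (48.4%), with Tomm70a, a receptor of the outer membrane, at 22.8 in CS and 86.9 in beige cells. Fusion, fission and mitophagy had 13 of 21 (61.9%), with Mff, which recruits the fission GTPase, at 13.8, and Pink1, the kinase that flags damaged mitochondria, at 12.2 in CS. Mitochondrial DNA and biogenesis genes had 12 of 23 (52.2%). One of them, Gabpa, shares its promoter peak with Atp5j of the ATP synthase and had 16.4 in CS and 38.7 in beige cells. The shares of these 6 lists, 48.4 to 61.9%, stood beside 59.5% in the cytosolic ribosome, 65% in the spliceosome and 77.8% in the proteasome, with intervals that overlap.

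**Figure D4:**
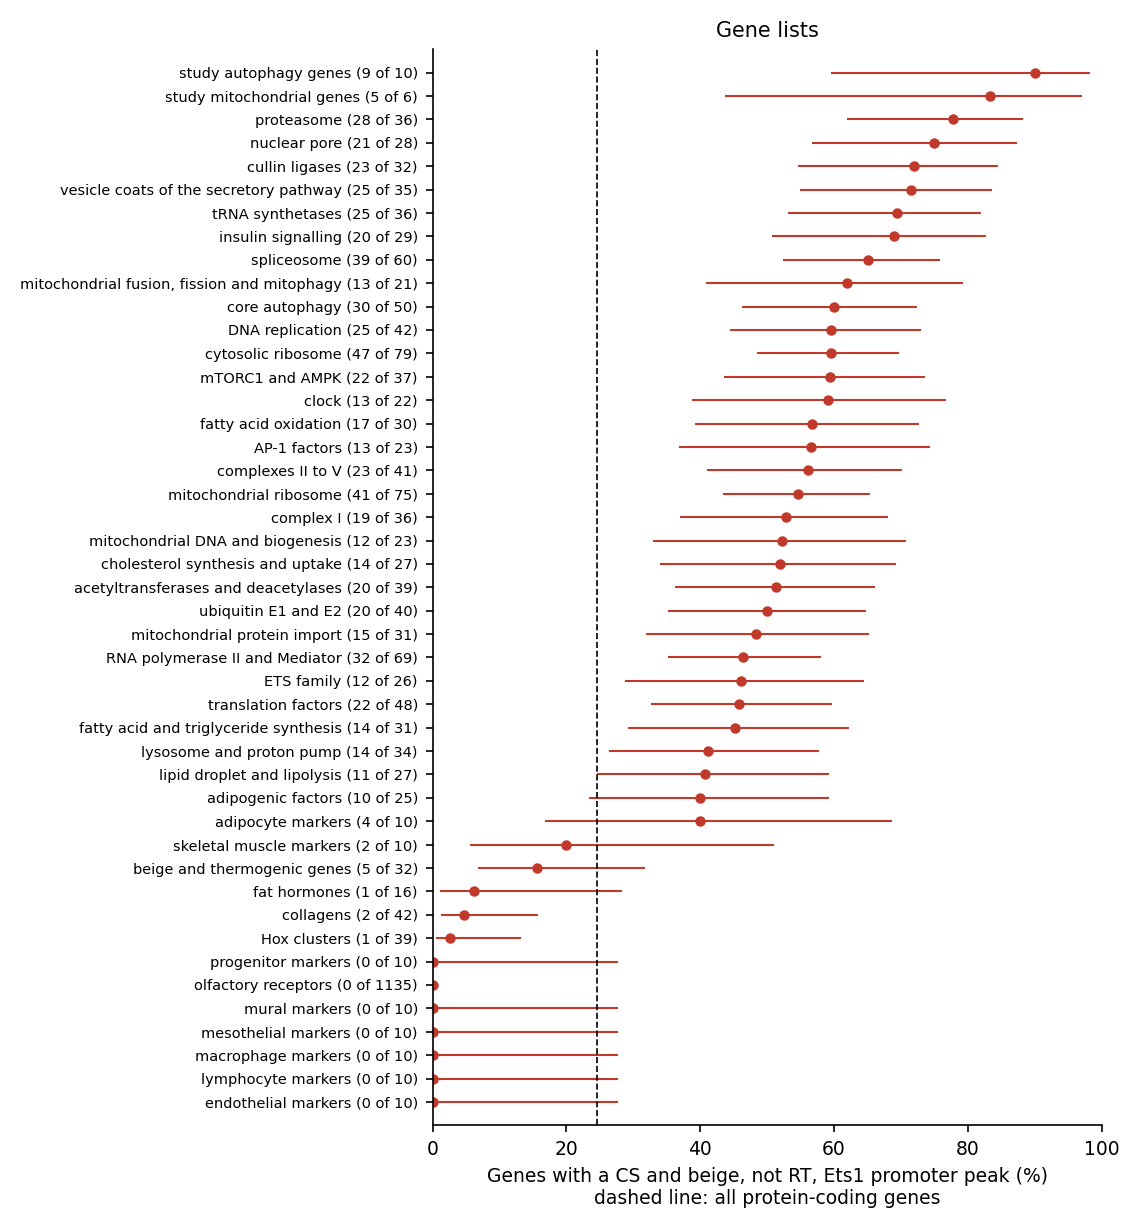
Percent of the genes of each of 45 lists with a CS and beige, not RT, Ets1 promoter peak (x axis), with Wilson 95% intervals for counting error; the dashed line marks 24.6% of all protein-coding genes. Lists of general cell machinery stand on the right and cell type markers, collagens and olfactory receptors on the left.

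Genes of fat metabolism were spread through that order. Insulin signalling had 20 of 29 genes with a repeated peak (69.0%), led by Cblb, a ubiquitin ligase of receptors, with 18.9 in CS, and fatty acid oxidation had 17 of 30 (56.7%), led by Crot with 9.75 and Acads with 9.71 in CS. Fatty acid and triglyceride synthesis had 14 of 31 (45.2%), with Acaca at 17.9, Fasn, fatty acid synthase, at 7.85 and Acly, ATP citrate lyase, at 7.81 in CS. The Acly peak had an RT peak 50 bp away. Cholesterol genes had 14 of 27 (51.9%), with Dhcr7 at 13.3, in a repeated peak other than the one it shares with Nadsyn1, and Srebf2, the sterol-regulated factor, at 9.72 in CS. Lipid droplet and lipolysis genes had 11 of 27 (40.7%), with Cav1 at 7.04 and Abhd5, the activator of triglyceride lipase, at 5.09 in CS. Clock genes had 13 of 22 (59.1%), with Nr1d2 at 19.6, Cry1 at 10.2 and Cry2 at 7.80 in CS.

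Among genes known for their part in fat cells, adipocyte markers and adipogenic factors stood at 40%, and thermogenic genes and fat hormones had the lower counts. The 24.6% of all genes lay inside the interval of each of these lists. The interval was 1.11 to 28.3% for fat hormones, 16.8 to 68.7% for adipocyte markers and 23.4 to 59.3% for adipogenic factors. Of 32 beige and thermogenic genes, 5 had a repeated peak (15.6%, 6.86 to 31.8%). They were Gk, glycerol kinase, with 6.80 in CS and 77.0 in beige cells, Pdk4 with 6.04 and 29.6, Atp2a2, the calcium pump, with 5.95 and 24.9, Ppara with 3.69 and 6.64, and Nfia. The low count follows in part from the rule. In the CS list alone, 10 of the 32 genes had a promoter peak, beside 7177 of 21938 protein-coding genes (32.7%). Esrra and Letmd1 also had an RT promoter peak, and Irf4 and Cited1 had no beige one. Adrb1 had CS and beige promoter peaks but no repeated peak. Ucp1, Ppargc1a, Prdm16, Cidea and Dio2, which define thermogenic fat, had no promoter peak in any of the 3 Ets1 lists. Of these, Ppargc1a, Prdm16, Cidea and Dio2 had ATAC promoter peaks in both EAKO and Flox, and Ucp1 had H3K27ac in EAKO and Flox without an ATAC peak. Of 16 fat hormones, Metrnl alone had a repeated peak, with 4.51 in CS and 12.5 in beige cells. Of 10 adipocyte markers, Pparg, Lpl, Lipe and Cebpa had one, with 7.18, 6.08, 3.87 and 3.17 in CS. Adipoq and Cidec had no promoter peak in any of the 9 lists used here, although both genes are defining markers of the labelled cell, and 7 of the 10 markers had ATAC promoter peaks in EAKO and 7 in Flox.

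Most lists of markers of cell types other than adipocytes, which may float along with them, were without repeated peaks. None of 10 markers each of progenitors, macrophages, endothelium, lymphocytes, mural cells and mesothelium had one. The Wilson interval for each reaches 27.8% and so covers the 24.6% of all protein-coding genes. Their promoters were not all closed, since Flox ATAC had peaks at 10 of 10 progenitor, 9 of 10 mural, 8 of 10 endothelial, 6 of 10 mesothelial, 3 of 10 macrophage and 3 of 10 lymphocyte markers. The rule asks for a peak in cultured beige cells, so these counts cannot tell which cells the cold sample held. In the CS list, Cd34, Cdh5, Tie1 and Nkg7 had promoter peaks, and none of them had a beige promoter peak. Of 10 skeletal muscle markers, Mylpf and Actn3 had a repeated peak, and the Mylpf peak lies over the promoter of Tbc1d10b as well. Collagens gave 2 of 42 (4.76%), Hox clusters 1 of 39 (2.56%) and olfactory receptors 0 of 1135, with an interval that ends at 0.337%.

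Ets1 itself and other ETS genes were among the repeated peaks, 12 of 26 (46.2%, 28.8 to 64.5%). At Ets1 (ENSMUSG00000032035.15, chr9:32695834-32696231), the summit lay 2 bp from a TSS. The value was 4.31 in CS and 25.3 in beige cells. ATAC there was 86.8 in EAKO and 115 in Flox, and H3K27ac was 3.79 in EA+/+, 3.15 in EC+/+, 26.6 in EAKO and 49.6 in Flox. This promoter was therefore open and acetylated in EAKO adipocytes as well, and a promoter peak says nothing of whether floxed exons elsewhere in the gene were lost. Elk4 had 16.4 in CS, Ets2 had 9.71 and Etv5 had 7.16. Of 39 acetyltransferases and deacetylases, which write and erase marks such as H3K27ac, 20 had a repeated peak (51.3%), with Hdac1 at 12.2 and Crebbp, a writer of H3K27ac, at 11.4 in CS. Crebbp had H3K27ac in EA+/+ at 4.55, none in EC+/+, 6.96 in EAKO and 35.3 in Flox. Of 23 AP-1 factors 13 had one (56.5%), with Atf2 at 11.3 in CS, but 8 had one at q under 0.001 in the Ets1 lists. Of 25 adipogenic factors 10 had one (40.0%), with Nr3c1 at 9.44 and Pparg at 7.18 in CS.

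The genome sequence, which the rule did not use, held the ETS sequence at few summits. CCGGAAG on either strand stood within 50 bp of 331 of 4852 CS summits (6.82%, Wilson 95% interval 6.15 to 7.57%), as a single copy in 306. The share was 1.43% (0.93 to 2.19%) for the peaks of CS only, 2.85% (1.81 to 4.46%) for those also in beige cells and at RT, and 0.505% (0.371 to 0.687%) for CS peaks outside promoters. It was 6.65% for windows of the same length at all 21938 gene starts, so the repeated peaks were near that background. AGCCGAG, the same letters with the CpG kept, stood in 3.71% of the repeated peaks and 2.20% of all gene starts, and GAAGGCC, the letters reversed, in 2.89% and 1.67%. At the beige summits of the same 4852 peaks the ETS sequence stood in 475 windows (9.79%, 8.99 to 10.7%). At the annotated starts of the 5394 genes it stood in 663 (12.3%, 11.4 to 13.2%), against 694 of 9466 starts of other genes with a Flox ATAC promoter peak (7.33%, 6.82 to 7.87%) and 1.43% of 7078 starts with neither. The rearranged control gave 3.19, 2.52 and 1.02% at those 3 sets of starts.

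The ETS sequence did not gather on the CS summit. In bins of 20 bp it was found at 1.38% and 1.24% of the repeated peaks in the bins on each side of the summit, at 1.75% and 1.83% in the next bins outwards, and it stayed above 1% as far as the bins centred 150 bp to one side and 190 bp to the other. At gene starts the same bins held 2.01% and 2.23% at the start itself. The share was 9.04% where the summit lay within 100 bp of a TSS (2710 peaks) and 3.10% where it lay over 250 bp away (709 peaks). With the repeated peaks split by CS value into 4 groups of near-equal size, it was 7.58% in the strongest (6.22 to 9.21%) and 5.90% in the weakest (4.71 to 7.37%), with overlapping intervals. Split by beige value, it was 8.24% in the strongest (6.82 to 9.93%) and 4.04% in the weakest (3.07 to 5.30%), with intervals that do not overlap. Peaks with EAKO ATAC held it at 7.01% (323 of 4606) and peaks without at 3.25% (8 of 246, 1.66 to 6.28%).

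**Figure D5:**
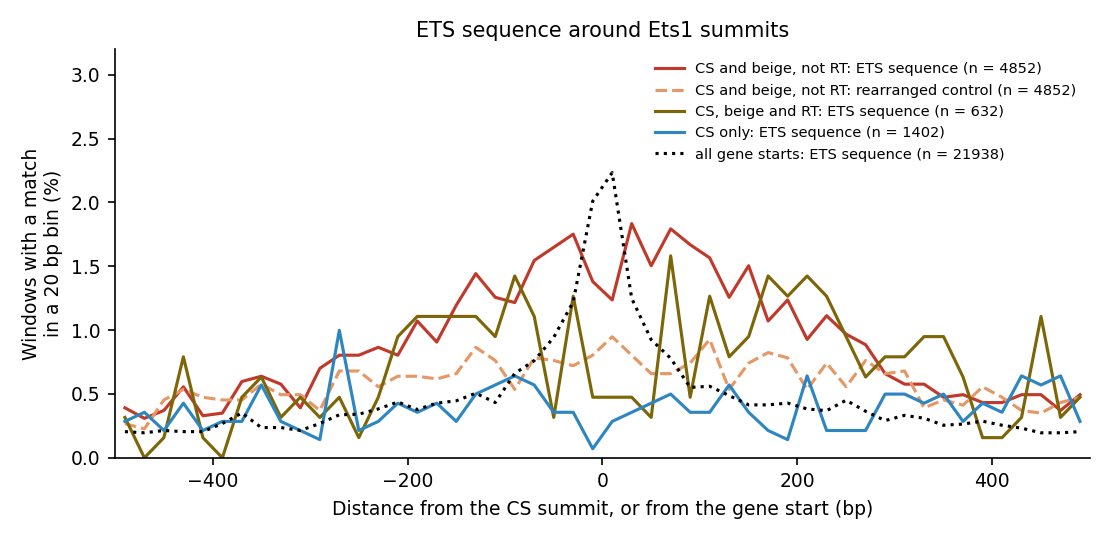
Percent of windows with the ETS sequence in each 20 bp bin (y axis) by distance from the CS summit or, for the dotted line, from the gene start (x axis, bp). The repeated peaks hold it most often within about 150 bp of the summit, with 1.38 and 1.24% in the bins beside the summit itself and no single peak there, while gene starts reach 2.23% at the start.

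Other letters separated the classes too. GGGCGG, a box bound by SP factors, stood in 40.3% of the repeated windows, against 54.0% in those that RT also held, 20.8% in those of CS only and 27.8% at all gene starts. CCAAT stood in 12.9% of the repeated windows at the CS summits and 20.1% at the beige summits of the same peaks. At gene starts it stood in 17% for the 5394 genes with a repeated peak, against 14.5% for all genes. TATAAA, the TATA box, stood in 2.06% of the starts of the 5394 genes, against 5.26% of all gene starts, and in 0.577% of the windows at the CS summits. Over 500 bp on each side of the summit or start, the median GC content was 60.7% at the repeated peaks, 58.3% at those of CS only, 63.1% at those that RT also held and 54.7% at all gene starts, and the median ratio of observed to expected CpG was 0.778, 0.614, 0.776 and 0.552 in the same order. The repeated peaks thus lay in CpG-rich promoters, of the kind that general cell genes carry. How far matches of letters that contain CpG follow that content was not tested.

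The X chromosome was thinly covered. Of 948 protein-coding genes on X, 73 had a repeated peak (7.70%, 6.17 to 9.57%), against 5321 of 20807 autosomal genes (25.6%, 25 to 26.2%), and 0 of 183 on Y did, with an interval that ends at 2.06%. X genes were also less often marked in the lists taken alone, with Flox ATAC promoter peaks at 47% of X and 69.2% of autosomal genes and beige Ets1 promoter peaks at 25.9% and 47.7%. Among genes with a Flox ATAC promoter peak, 73 of 446 on X (16.4%) and 5319 of 14408 on autosomes (36.9%) had a repeated peak. Naa10, an acetyltransferase of protein N termini on X, had 7.32 in CS and 6.09 in beige cells.

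Peaks near the edges of the rule show how little separates some of them from the rest. The smallest overlaps with a beige peak inside it were 1 bp at Ktn1 and 2 bp at Mrps24, and just outside were Pcsk7, whose peak touches a beige peak without overlap, and Prdm4, with a beige peak 1 bp away. Among peaks inside it, an RT peak lay 35 bp away at the shared promoter of Cenpn and Cmc2 and 50 bp away at Acly, and just outside RT overlapped by 3 bp at Ing1. At Cenpn and Cmc2 another CS peak overlapped RT by 4 bp and was left out. An RT peak lay within 1000 bp of 38 of the 4852 peaks, and 85 of the 5394 genes had an RT peak elsewhere in their promoter windows. The lowest CS value inside was 1.3 at Samd4, and the lowest beige values were 1.3 at Cdo1 and 1.34 at Icosl. The peak whose edge lay farthest from a TSS was that of Mid1, at 998 bp, and the nearest cold peak left out lay 1005 bp from one.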

How the data were processed

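Ets1 was profiled by CUT&Tag in CS, beige and RT adipocytes, H3K27ac by CUT&Tag in 4 genotypes and open chromatin by ATAC in 2, with 1 library per group. The authors trimmed reads with trimmomatic, aligned them with BWA to mm10 and called peaks for each library with MACS2 at q under 0.05. SAMtools, deepTools and DESeq2 are further tools listed in the submitters' processing notes. The control used for MACS2 is not given in the sources used here. Read totals per library, which the study's reporting summary lists, were not used here. Per the file format, each deposited peak carries an integer score, a fold enrichment over local background, a −log10 p-value and a −log10 q-value, and the authors' MACS2 run made all 4. Each of these values depends on its library's depth, so they were ranked only within a list. The score and the −log10 p were not used.

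Peaks were matched in Python 3.11.15 (numpy 2.4.6, pandas 2.3.3) by at least 1 bp of overlap, with 93513 transcript starts of protein-coding genes from GENCODE M21, whose genome is the build of the files. Intervals are Wilson 95% intervals (scipy 1.17.1) and cover counting error over peaks or genes only. With 1 library per group there was no test and no p-value. The functions that match overlaps and promoter windows were tested on simulated intervals, and the motif counts were not. Sequences were read from the mm10 genome. The peaks, the 45 gene lists and the alternatives were chosen with earlier results of these data known. Genes named in the text were the 12 highest in CS and in beige cells, up to 4 per list by CS −log10 q, the genes the study names, up to 6 per class of openness or acetylation, and up to 3 on each side of a limit of the rule. Further members of a list or class were named after their values were seen. Mars1, in the tRNA synthetase list, was not matched by symbol. Alternatives changed the q threshold, the overlap, the promoter width, the start sites, the RT limit, the list lengths and the ETS letters.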

Additional observations from a re-analysis of the deposited data

How the results depend on the processing

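The 4852 peaks became 4084 at q under 0.001 in the Ets1 lists, 4149 when a shared peak had to cover at least 0.5 of the CS peak, 4316 when it had to hold the CS summit, and 4371 to 4977 under other promoter widths, start sites and RT limits. With the best 4056 peaks of each Ets1 list they were 1234, at 1481 genes. The shares open in EAKO and Flox and acetylated in EA+/+, EC+/+, EAKO and Flox were 96.376, 99.192, 76.738, 81.366, 93.56 and 98.237% at q under 0.001. In the same order of libraries they were 87.587, 96.216, 60.448, 65.775, 84.334 and 93.709% with the larger overlap, and 89.666, 96.455, 61.469, 67.586, 86.075 and 94.393% with the summit rule. With the best 4056 Ets1 peaks they were 97.569, 99.595, 78.606, 83.387, 96.11 and 98.865%. With the best 33713 peaks of each ATAC and H3K27ac list they were 87.861% in EAKO and 93.961% in Flox for ATAC, and 73.434% in EA+/+, 78.689% in EC+/+, 88.788% in EAKO and 95.301% in Flox for H3K27ac. The share with the ETS sequence was 8.2658% with the best 4056 Ets1 peaks, 13.5% within 100 bp of the summit, 0.90684% for the longer ACCGGAAGT and 11.232% for the shorter CCGGAA. Of 45 gene list counts, 3 moved by over 1.5 times at q under 0.001 (AP-1 factors to 8, collagens to 1, Hox clusters to 0), 2 with promoters of 500 bp (Hox clusters to 0, skeletal muscle markers to 1) and 1 with promoters of 3 kb (macrophage markers to 1). The causes of these changes were not tested. No paired analysis was possible because each group was 1 library. The spread between animals is unknown, and read totals were not used here, so a peak missing from a list may lie below its threshold.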
